A study of Rattus norvegicus with 94 samples.

Results

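The transcripts described here encode the subunits of the mitochondrial oxidative phosphorylation machinery, measured in rat liver after a single dose of clofibrate, sodium valproate (VPA) or DEHP. The members are all probe sets of the array whose single annotated gene symbol starts with Ndufa, Ndufb, Ndufc, Ndufs, Ndufv, Sdh, Uqcr, Cox4, Cox5, Cox6, Cox7, Cox8 or Atp5, or equals Cyc1 or Cycs. This rule used names and no measured value. It took 56 of the 4737 genes that a probe set names alone, measured by 102 of the 8799 probe sets. Of these, 40 probe sets belong to complex I, 1 to complex II, 7 to complex III, 25 to complex IV, 13 to complex V (ATP synthase) and 4 to Atp5if1, the protein that inhibits ATP synthase. The last 12 carry a matching name but are no subunit of a complex: the assembly factors Ndufaf3 and Sdhaf2, the supercomplex factor Cox7a2l, the paralogue Ndufa4l2 and a Cox6c pseudogene. Ndufa4 was counted with complex IV, where its protein is found. Another 7 probe sets with a matching symbol among several were left out, and no probe set for Cycs alone was found.

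Livers came from male SD rats, and 76 arrays of single animals in 18 groups were compared. Clofibrate, a fibrate drug that lowers blood lipids, was dosed at 1000 mg/kg in 0.9% saline. VPA, an antiepileptic drug, was dosed at 2000 mg/kg, and DEHP, a phthalate plasticizer, at 20 g/kg, both in distilled water. The treated groups at 4, 24, 48 and 168 h held 3, 3, 5 and 5 animals for clofibrate and for DEHP and 3, 3, 4 and 4 for VPA. Each compound had its own vehicle animals, 5 at 48 h and 5 at 168 h. No vehicle livers at 4 or 24 h were used here, so treatment at these times was set against both vehicle groups of that compound, and time after dosing cannot be told apart from treatment there. Another 18 arrays carried pooled RNA, 1 for each group. The values are MAS 5.0 signals, hybridisation intensities on a linear scale that sum up the probes of a probe set. Each level below is a signal as mean ± SD over animals, and each log2 change is a difference of log2 signals ± its standard error. A change is called where limma's p, adjusted over all probe sets tested, is under 0.05.

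Oxidative phosphorylation is the last stage of respiration. Complexes I and II pass electrons from NADH and succinate to ubiquinone, complex III passes them to cytochrome c, and complex IV (cytochrome c oxidase) passes them to oxygen. Complexes I, III and IV pump protons across the inner membrane, and complex V lets them flow back and makes ATP. Most subunits are encoded in the nucleus, while a few core subunits are encoded in mitochondrial DNA. Hepatocytes are rich in mitochondria and oxidise fatty acids there, which feeds electrons into this chain.

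Promoters of 3 members are shown because their transcripts carry the results below. Atp5if1 and Uqcrfs1 rose after VPA, and Cox4i1 was called lower, though not on all its probe sets at each time. They span 250 bases before to 50 bases after the gene start in RefSeq's GRCr8 assembly. Capitals mark matches to CATGCGC, the core of the NRF1 site, CCGGAAG, an ETS factor core, CCAAT or AGGTCA, a short nuclear receptor element, read on both strands. The positions are Atp5if1 chr5:150026628-150026927, minus strand, Uqcrfs1 chr17:34186352-34186651, plus strand, and Cox4i1 chr19:65630133-65630432, plus strand.
Atp5if1: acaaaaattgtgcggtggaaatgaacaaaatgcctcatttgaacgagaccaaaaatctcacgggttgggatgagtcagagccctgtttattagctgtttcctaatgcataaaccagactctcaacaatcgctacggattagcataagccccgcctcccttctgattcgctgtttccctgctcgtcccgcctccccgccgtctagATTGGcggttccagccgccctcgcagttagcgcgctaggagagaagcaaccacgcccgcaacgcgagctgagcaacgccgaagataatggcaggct
Uqcrfs1: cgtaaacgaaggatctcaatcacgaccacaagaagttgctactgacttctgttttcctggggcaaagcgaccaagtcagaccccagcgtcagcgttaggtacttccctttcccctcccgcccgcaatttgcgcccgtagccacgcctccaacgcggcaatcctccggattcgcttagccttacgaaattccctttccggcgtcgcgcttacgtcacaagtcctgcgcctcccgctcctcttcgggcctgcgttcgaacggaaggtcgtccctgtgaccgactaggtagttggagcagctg
Cox4i1: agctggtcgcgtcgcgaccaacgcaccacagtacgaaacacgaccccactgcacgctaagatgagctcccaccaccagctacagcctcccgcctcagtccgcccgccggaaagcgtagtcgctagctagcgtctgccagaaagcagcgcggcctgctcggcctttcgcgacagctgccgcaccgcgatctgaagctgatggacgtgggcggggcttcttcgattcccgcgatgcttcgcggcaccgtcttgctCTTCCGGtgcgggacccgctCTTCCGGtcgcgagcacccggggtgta

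The Atp5if1 window held 1 CCAAT match, on the minus strand, and none of the other motifs. The Cox4i1 window held 2 matches of the ETS core on the minus strand, both just after the start. The Uqcrfs1 window held none of these letters. Promoters were given for 47 of the 56 symbols, 42 of them subunits of complexes I to V. Among those 42 promoters the NRF1 core was found in 5 (11.9%), against 3.77% of all 33469 promoters of the same length. The ETS core was found in 9 (21.4%, against 8.75%), AGGTCA in 12 (28.6%, against 16.2%) and CCAAT in 15 (35.7%, against 37.5%). These are counts of letters in a window and say nothing of a factor's binding.

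The hepatocyte marker Ttr had a lowest group mean of 36140 and 32460 on its 2 probe sets. Summed over 18 hepatocyte probe sets, the VPA vehicle group at 48 h ran from 663100 to 813900, against 19860 to 31540 over 15 Kupffer cell and leukocyte probe sets. Clofibrate arrays differed from the others in the ratio of 3′ to 5′ signals, a common measure of RNA integrity. The Gapdh and beta-actin controls gave a 3′ over 5′ signal ratio, on the log2 scale, of 1.38 ± 0.65 (SD) over 26 clofibrate arrays, against 0.33 ± 0.14 over 26 DEHP arrays and 0.34 ± 0.14 over 24 VPA arrays. Clofibrate livers at 48 h had 1.26 ± 0.70 when treated and 1.77 ± 0.80 when given vehicle. Signals of 4 clofibrate arrays were deposited to 1 decimal, unlike those of any other single animal. They were treated replicate 3 at 24 h (2.74), treated replicate 5 at 48 h (2.40) and vehicle replicates 4 and 5 at 48 h (2.57 and 2.49). These ratios were the highest of the set. An alternative fit left these arrays out, and why they differ was not tested. The median SD of members' log2 signals was 0.34 in the clofibrate vehicle group at 48 h and 0.15 and 0.21 in those of DEHP and VPA, and the highest vehicle group mean of a member exceeded the lowest by 1.68-fold in the median. Atp5po, a stator stalk subunit of complex V, had the widest such gap, 3.44-fold, between clofibrate and VPA vehicles, and Atp5pd the narrowest, 1.07-fold. Levels are therefore compared within a compound's own arrays.

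Most member calls fell at 24 and 48 h, and none was made at 168 h with clofibrate or VPA. In bulk liver RNA, fewer cells of a type and less RNA per cell cannot be told apart, here or below. After VPA, 28 of 86 tested members were called at 24 h (17 higher, 11 lower; of all probe sets 36.5% were called, 20.9% higher and 15.6% lower) and 29 at 48 h (20 higher, 9 lower; 39.7% of all, 21.3% higher and 18.4% lower). At 4 h, 10 were called (1 higher, 9 lower; 21.2% of all, 14.4% higher and 6.79% lower). After DEHP, 19 of 86 were called at 24 h (13 higher, 6 lower; 32.6% of all, 15.1% higher and 17.5% lower), 17 at 48 h (12 higher, 5 lower; 33.8% of all, 12.8% higher and 21.1% lower), 2 at 4 h (both lower; 2.88% of all, 1.54% higher and 1.34% lower) and 2 at 168 h (both higher; 3.62% of all, 2.13% higher and 1.49% lower). After clofibrate, 4 of 87 were called at 24 h (all higher; 13.5% of all, 5.75% higher and 7.74% lower) and 12 at 48 h (10 higher, 2 lower; 20% of all, 7.27% higher and 12.7% lower). None was called with clofibrate at 4 h (3.43% of all, 2.43% higher and 0.996% lower) or 168 h, or with VPA at 168 h (0% of all in both), although 3, 0 and 2 members had an unadjusted limma p under 0.05. The split moved with the scaling: after centring each array on its median, 14 of 17 calls were higher with DEHP at 24 h, 20 of 22 with DEHP at 48 h and 13 of 29 with VPA at 24 h. The median log2 change over all tested probe sets was −0.12 with clofibrate and −0.10 with DEHP at 48 h.

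**Figure D1:**
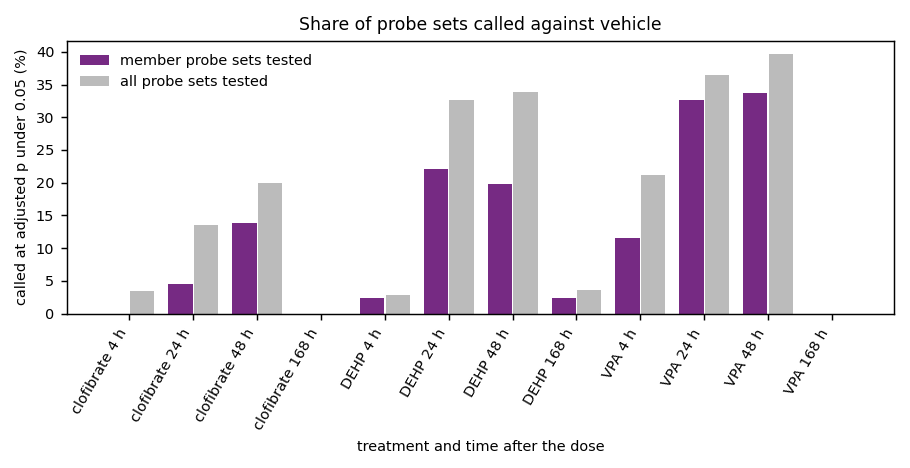
Share of tested probe sets called against vehicle (adjusted p under 0.05, %, vertical axis) in each of the 12 comparisons (horizontal axis), for members (purple bars) and for all probe sets (grey bars). The member bar is below the grey bar in each comparison where any probe set was called, for example 33.7% beside 39.7% with VPA at 48 h.

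Over all 12 comparisons, 58 member probe sets for 40 symbols were called at least once. The same count over all probe sets is not given here. In each comparison with any call, the share of members called was below that of all probe sets, for example 33.7% beside 39.7% with VPA at 48 h. Of the 58, 34 were called only higher, 21 only lower and 3 in both directions. The other 44 were never called, 14 of them because they did not pass the filter on low signals in any set. The 123 calls differed in how firmly they held: 51 of them, in 18 symbols, were kept under each alternative processing tried and without any single array, and 57 were lost when 1 array was left out. The heat map shows 1 probe set for each of 52 genes.

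**Figure D2:**
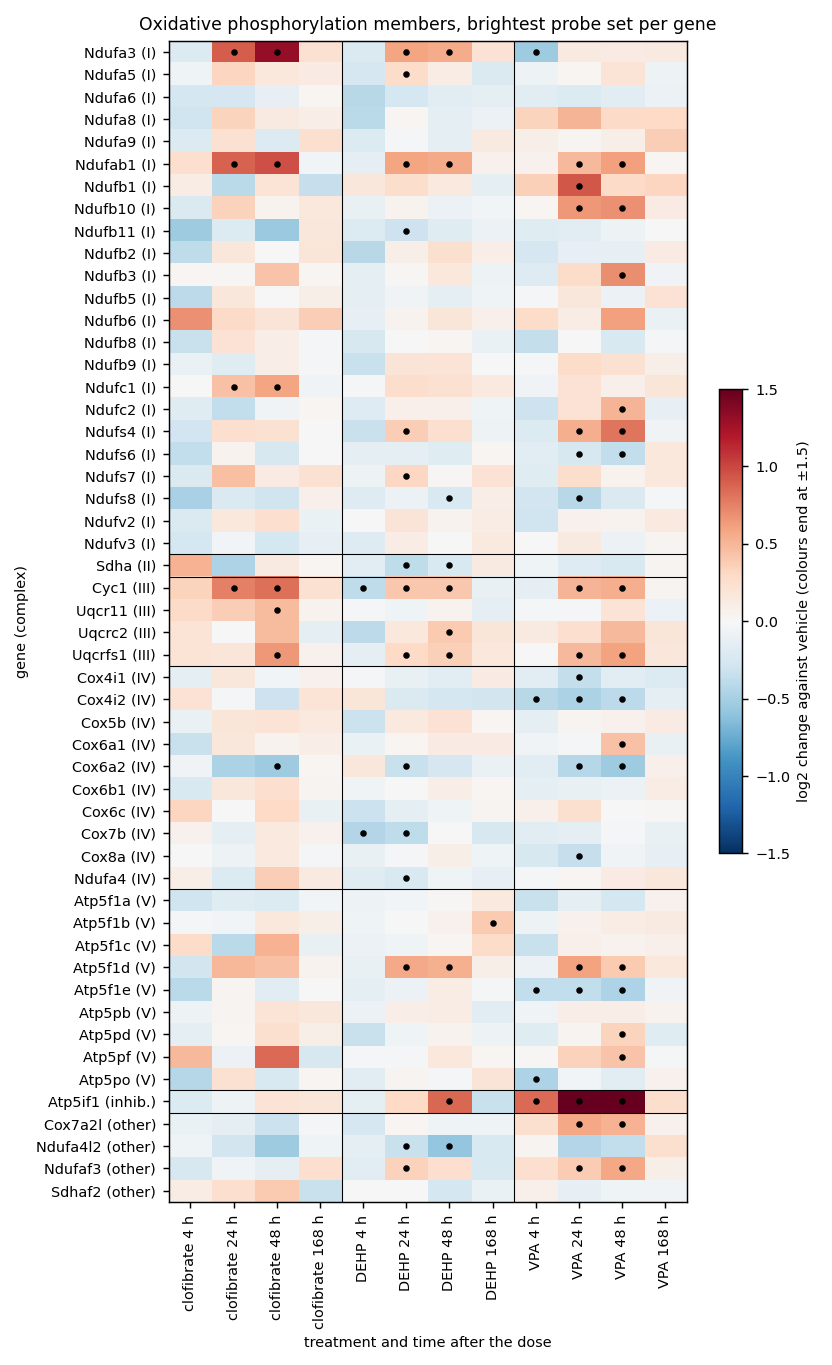
Log2 change against vehicle (colour, red higher and blue lower) for the brightest probe set of each gene with a mean signal of at least 500 (rows, ordered by complex) in 12 comparisons (columns). Dots mark calls, and the colour scale ends at ±1.5. Atp5if1 holds the deepest red, 2.39 with VPA at 48 h, and Cyc1 and Ndufab1 carry dots at 24 and 48 h in all 3 sets.

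Cell type markers moved in the same samples. Of 16 tested hepatocyte marker probe sets, 14 were called lower and none higher with VPA at both 24 and 48 h, with median log2 changes of −0.67 and −0.58. The summed signal of all 18 probe sets on the list ran from 415600 to 548300 in VPA livers at 48 h, below the 663100 to 813900 of the vehicle livers. With DEHP, 9 and 8 of 15 were called lower at 24 and 48 h, and with clofibrate 4 and 7 of 15. At 48 h the sums ran from 716200 to 918100 in DEHP livers beside 906400 to 1080000 in their vehicle livers, and from 736200 to 1033000 in clofibrate livers beside 1023000 to 1411000. Among 11 tested stellate cell and fibroblast probe sets, 7 and 9 were called lower with DEHP at 24 and 48 h and 5 with VPA at both times. Among 11 Kupffer cell and leukocyte probe sets 8 were called lower with DEHP at 24 h, 5 with DEHP at 48 h and 1 and 2 with VPA at 24 and 48 h. With clofibrate 2 and 3 of 10 were called lower at these times. Of all probe sets, 15.6% and 18.4% were called lower with VPA at 24 and 48 h, 17.5% and 21.1% with DEHP and 7.74% and 12.7% with clofibrate. The VPA counts for Kupffer cells and leukocytes were thus not above the share over the array. Of 2 red blood cell probe sets, 2 and 1 were called lower with VPA at 24 and 48 h (median log2 change −0.73 and −1.12), and their sum ran from 5964 to 11840 in VPA livers at 48 h beside 19690 to 41890 in vehicle livers. With clofibrate and with DEHP 1 of the 2 was called lower at 48 h. Of 2 tested fat probe sets, 1 was called lower at 48 h with each compound. Of 2 tested endothelial probe sets, 1 was called lower with DEHP at 24 and 48 h. The 1 bile duct probe set tested with VPA was called higher at 48 h. Acta2 on 2 of its 3 probe sets, Des, Ptprc on 1 of 3 and C1qc on 2 of 3 were under 150 in each group mean. So were single probe sets of Dcn, Vwf and Plin1, and 1 of the hepatocyte marker Cps1 (1.21 to 81.3). Fgb, also on the hepatocyte list, had group means from 61.9 to 175 on 1 probe set. A dim probe set thus does not show that a cell type was absent. The part of these shifts in the member values was not tested.

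Atp5if1, the inhibitor, had the largest called log2 change among members. Its protein binds ATP synthase and holds it back from running in reverse and consuming ATP when the membrane potential falls. It rose after VPA at 4, 24 and 48 h and was not called at 168 h. On the brightest probe set the 4 VPA livers at 48 h read 4025, 4152, 3799.7 and 4224, and the 5 vehicle livers read 899.8, 856, 797, 567 and 797. Every treated liver was far above every vehicle liver. The log2 change was 2.39 ± 0.18 (5.23-fold, limma adjusted p = 7.46e-10). At 4 h the 3 VPA livers read 1273, 1636 and 1148 and at 24 h 2125, 3369 and 3199.7, against 567 to 1107 over all 10 VPA vehicle livers. These gave log2 changes of 0.84 ± 0.18 (adjusted p = 0.00191) and 1.93 ± 0.18 (adjusted p = 2.8e-08). The mean at 168 h was 864 ± 100, beside 739 ± 222 in vehicle livers.

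A second Atp5if1 probe set gave the same order. Its VPA means were 833 at 4 h, 1516 at 24 h and 2347 at 48 h, against 672 ± 163 and 553 ± 113 in the 2 vehicle groups. Its log2 change was 1.33 ± 0.18 at 24 h and 1.84 ± 0.18 at 48 h (adjusted p = 6.78e-06 and 4.29e-08), and the change at 4 h was not called. The third tested probe set differed from these: after VPA it read 457 and 641 at 24 and 48 h, beside 509.8 in vehicle livers, and was not called. The array's name for all 3 ends in f, which marks probes that may detect several related transcripts. The fourth probe set stayed below the filter in each set, with a highest group mean of 189 ± 34.2, in the VPA livers at 48 h.

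DEHP raised Atp5if1 less. At 48 h the 5 DEHP livers read 1506, 1597, 1078, 1489 and 1999.5 on the brightest probe set and the vehicle livers 842, 678, 726, 1129 and 826, so that the lowest treated liver lay under the highest vehicle liver. The log2 change was 0.86 ± 0.21 (adjusted p = 0.00217). The second probe set gave 0.54 ± 0.18 (adjusted p = 0.025), a call that was lost without vehicle replicate 2, 3 or 5 or treated replicate 1 or 5. At 168 h only the third probe set was called, at 1.00 ± 0.28 (adjusted p = 0.0434), while the brightest read 758 ± 199 beside 936 ± 164. That call was lost without vehicle replicate 4 or 5 or any of treated replicates 1 to 4. With clofibrate no Atp5if1 probe set was called, and at 48 h the brightest read 1989 ± 496 beside 1704 ± 298.

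**Figure D3:**
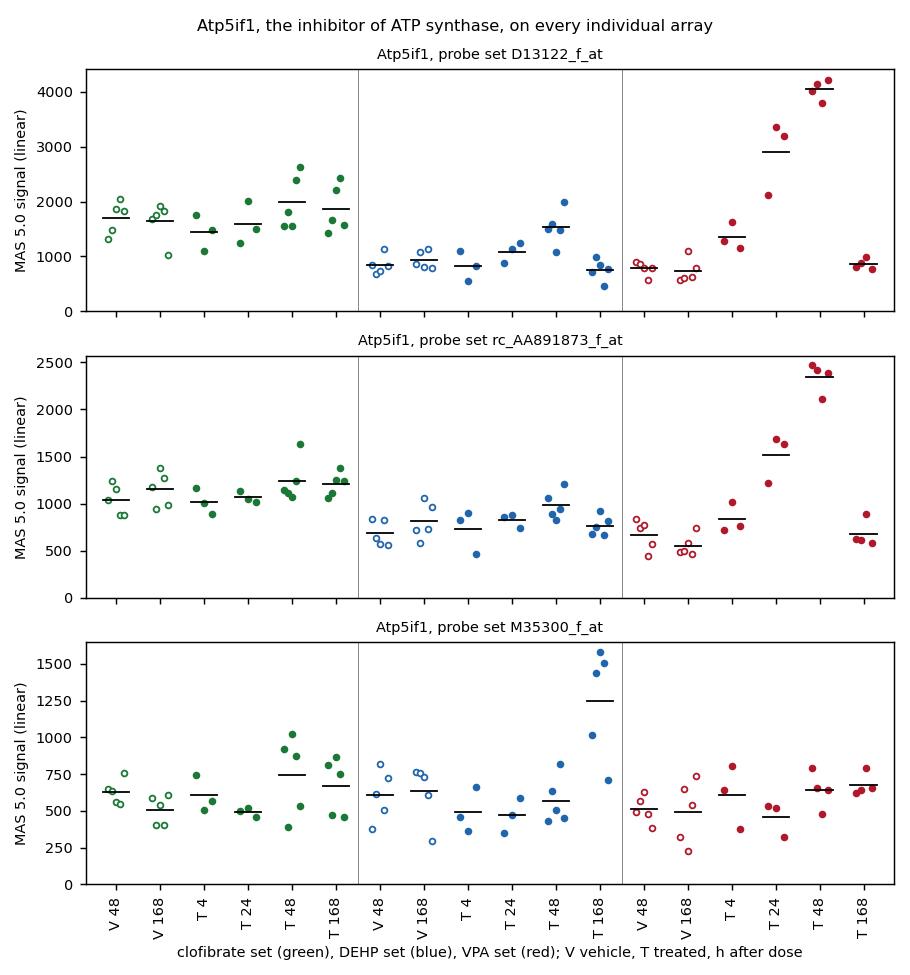
MAS 5.0 signal (linear axis) of 3 Atp5if1 probe sets on each individual array, by compound set, vehicle (V, open) or treated (T, filled) and hours after the dose. Horizontal bars are group means. The first 2 probe sets climb from 4 to 48 h after VPA (red) and are near vehicle levels at 168 h, and the third does not.

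Complex III probe sets were higher at 48 h with all 3 compounds. All 7 had a log2 change above 0 with each compound, with medians of 0.48 with clofibrate, 0.36 with DEHP and 0.54 with VPA, beside −0.12, −0.10 and −0.02 over all 3560 probe sets that averaged 500 or more. Of the 7, 4 were called higher and none lower in each of the 3 comparisons, where 7.27%, 12.8% and 21.3% of all probe sets were called higher. These 7 stand for only 4 genes. The count for clofibrate was 1 when only the compared groups were fitted, and that for DEHP was 2 when all 18 groups shared a fit.

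Uqcrfs1 encodes the Rieske iron-sulphur protein, which takes electrons from ubiquinol. On its brightest probe set the 4 VPA livers at 48 h read 19509, 20064, 17490.5 and 20396 and the vehicle livers 13693, 11720.5, 12389, 12646 and 13203, with no overlap (log2 change 0.60 ± 0.10, adjusted p = 2.28e-05). The other 2 probe sets changed by 0.85 ± 0.13 and 0.73 ± 0.15 (adjusted p = 1.34e-05 and 0.000542). The 5 DEHP livers at 48 h read 18098, 18462, 20688, 18465 and 17792, all above the vehicle livers at 13120 to 16840 (log2 change 0.36 ± 0.09, adjusted p = 0.0028). With clofibrate at 48 h the mean was 18590 ± 2498 beside 12140 ± 3209 and the groups overlapped (log2 change 0.65 ± 0.18, adjusted p = 0.0116), a call lost when only the compared groups were fitted. At 168 h no Uqcrfs1 probe set was called with any compound.

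Cyc1, the haem-bearing subunit that hands electrons to cytochrome c, was called higher at 24 and 48 h with all 3 compounds. At 48 h the 5 clofibrate livers read 17699, 8853, 16086, 13802 and 12416 and the vehicle livers 8121, 7848, 8746, 7349 and 6039. The lowest treated liver was only just above the vehicle livers, and the log2 change was 0.82 ± 0.18 (adjusted p = 0.00239). With DEHP at 48 h the livers read 11287, 10044, 8741, 11229 and 9884 against 6638, 8453, 7825, 7552 and 8070.3, again without overlap (0.41 ± 0.09, adjusted p = 0.00135). VPA gave 0.54 ± 0.14 (adjusted p = 0.00312), with 1 treated liver among the vehicle values. At 4 h after DEHP it was lower, at 6125 ± 625.4 (−0.38 ± 0.10, adjusted p = 0.0272), a call lost without treated replicate 2 or 3. The clofibrate call at 24 h was likewise lost without treated replicate 2 or 3. Uqcrc2, a core subunit, was called higher only with DEHP at 48 h and Uqcr11, a small accessory subunit, only with clofibrate at 48 h, and both calls were lost in several fits without 1 array.

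Complex I holds the most members, and calls in both directions fell on single subunits. Of 35 tested probe sets, 7 were called higher and 3 lower with VPA at both 24 and 48 h, 6 higher and 1 lower with DEHP at 24 h, 3 higher and 1 lower with DEHP at 48 h, and 3 and 4 higher and none lower with clofibrate at 24 and 48 h. Of all probe sets, 20.9% and 21.3% were called higher and 15.6% and 18.4% lower with VPA at these times, 15.1% and 12.8% higher and 17.5% and 21.1% lower with DEHP, and 5.75% and 7.27% higher with clofibrate. The VPA counts were thus near that share for higher calls and below it for lower ones. The median log2 change over its 33 probe sets with a mean of at least 500 ran from −0.205 with clofibrate at 4 h to 0.159 with clofibrate at 24 h.

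Ndufab1, the mitochondrial acyl carrier protein, which is both a complex I subunit and a carrier in lipoic acid synthesis, rose with all 3 compounds at 24 and 48 h on 1 of its 2 tested probe sets. At 48 h the DEHP livers read 10522, 8726, 9895, 9028 and 9942 and their vehicle livers 7049.5, 5920.2, 6885, 5427 and 7295, with no overlap (log2 change 0.57 ± 0.09, adjusted p = 2.56e-05). The clofibrate livers read 16942, 10413, 17918, 17059.5 and 10996 against 7166, 8382, 8998, 6633 and 5779.6 (0.97 ± 0.19, adjusted p = 0.000782), also apart. With VPA the change was 0.61 ± 0.16 (adjusted p = 0.00341) and the groups overlapped, and the VPA call at 24 h was lost without treated replicate 1 or 3. By 168 h its means were 7323, 6726 and 6351, beside 7428, 6457 and 6170 in the clofibrate, DEHP and VPA vehicle groups.

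Ndufa3, a small accessory subunit, had the largest called clofibrate change of a member. The 5 clofibrate livers at 48 h read 45618, 29379, 29394, 30073 and 54594 and the vehicle livers 9003, 12068, 16220.2, 21966 and 17544, so all treated livers were higher (log2 change 1.31 ± 0.25, adjusted p = 0.000554). At 24 h it was 24570 ± 2187 (0.91 ± 0.26, adjusted p = 0.0201), a call lost without treated replicate 1 or 3. DEHP livers were uneven: at 48 h they read 13622, 15964, 8588, 6228 and 6931, which overlapped the vehicle range of 5719 to 8082 (0.55 ± 0.21, adjusted p = 0.0402). That call was lost without vehicle replicate 1, 2, 3 or 4 or treated replicate 1 or 2. VPA lowered Ndufa3 at 4 h, to 3852 ± 459.8 from 5603 ± 649 (−0.54 ± 0.12, adjusted p = 0.00327), and left it uncalled at 24 and 48 h.

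Ndufs4, a subunit of the NADH-oxidising arm that is needed for a stable complex, rose with VPA. The 4 livers at 48 h read 4686, 4644, 4491 and 3769.7 and the vehicle livers 2375, 2859, 2341, 2597 and 2429, without overlap (log2 change 0.80 ± 0.13, adjusted p = 2.82e-05), and its second probe set gave 0.74 ± 0.12 (adjusted p = 2.57e-05). VPA at 48 h also raised the membrane arm subunits Ndufb6 (0.48 ± 0.11, adjusted p = 0.001), Ndufc2 (0.51 ± 0.12, adjusted p = 0.00112), Ndufb10 (0.68 ± 0.18) and Ndufb3 (0.69 ± 0.22). The call for Ndufb6 was lost when all 18 groups shared a fit, and that for Ndufb3 without treated replicate 1 or 4. Clofibrate at 48 h raised Ndufc1 from 12210 ± 1572 to 18370 ± 2025 (0.59 ± 0.14, adjusted p = 0.003). Ndufb8, the complex I member with the highest mean signal, was called with none of the compounds. Of its 4 probe sets, 1 was tested with clofibrate only. The means of its brightest probe set over the 18 groups ran from 8454 to 23110.

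In the NADH-oxidising arm, Ndufs8 and Ndufs6 fell with VPA. Ndufs8, which carries iron-sulphur clusters next to the ubiquinone site, has 3 tested probe sets, and each was called lower with VPA at 1 or more times. On 1 of these the 3 livers at 24 h read 705, 539.9 and 798, below all 10 vehicle livers at 989 to 1680 (log2 change −0.83 ± 0.20, adjusted p = 0.00217). A brighter Ndufs8 probe set fell from 6470 ± 573 to 4824 ± 341 (−0.42 ± 0.10, adjusted p = 0.00268). Ndufs6 at 48 h read 7977, 7302, 8228 and 7634 against 9870.5, 10270.3, 10096, 11266 and 8905, without overlap (−0.37 ± 0.09, adjusted p = 0.00257). The calls for that brighter Ndufs8 probe set and for Ndufs6 were lost when all 18 groups shared a fit.

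**Figure D4:**
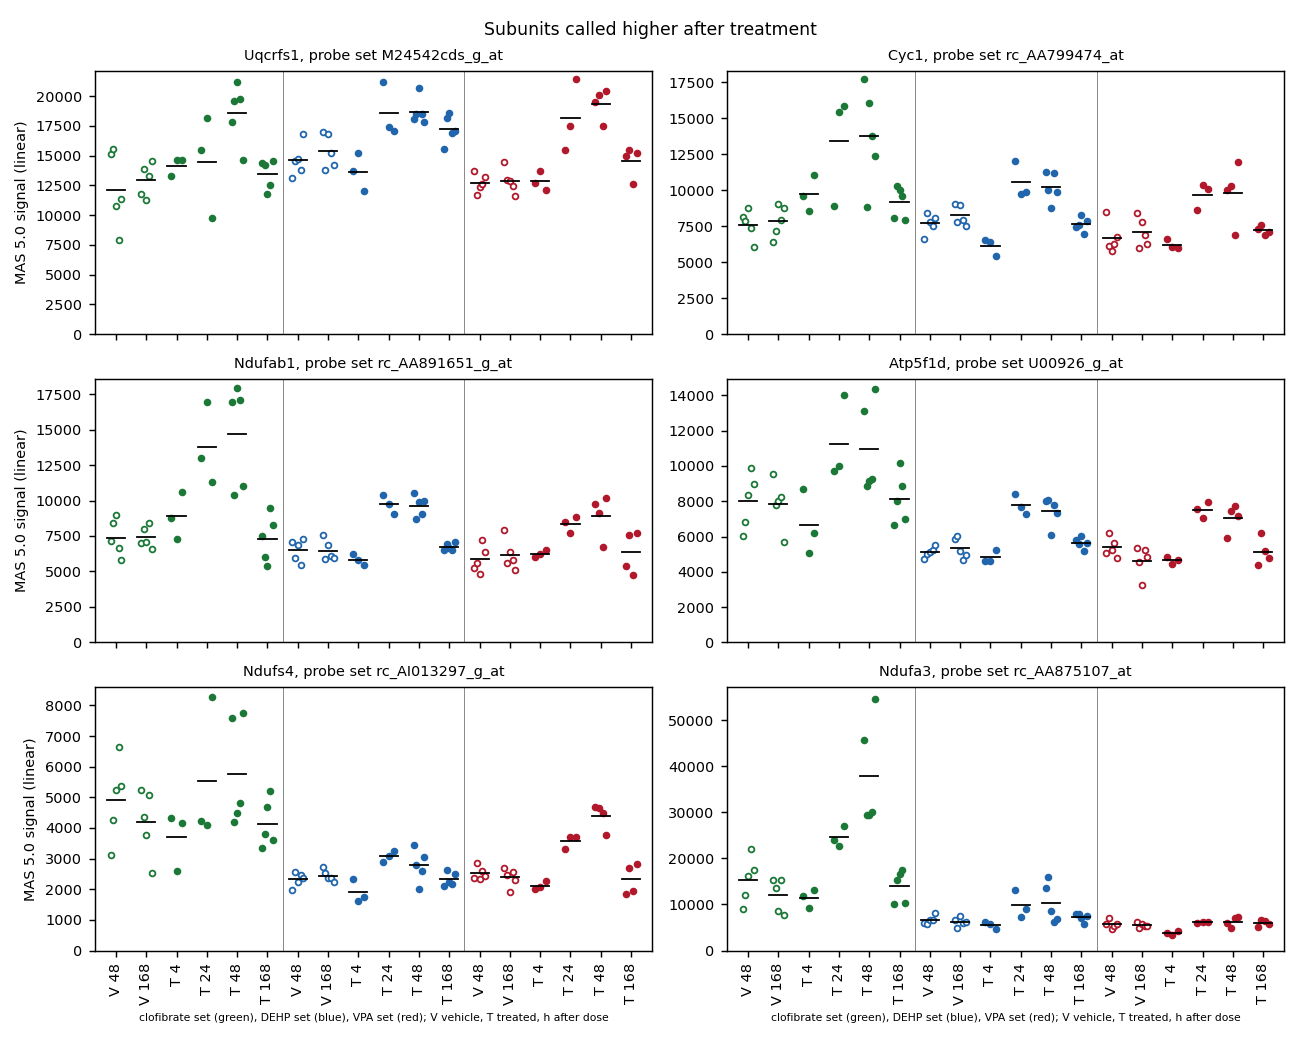
MAS 5.0 signal (linear axis) on each individual array for 6 subunits called higher after treatment, by compound set, vehicle (V, open) or treated (T, filled) and hours after the dose, with group means as bars. Each subunit stands above vehicle at 24 or 48 h in the sets where it was called, and the clofibrate points (green) of Ndufa3 at 48 h, 29379 to 54594, lie above all its vehicle points.

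Complex II was represented by Sdha, its flavoprotein, which oxidises succinate. The 3 DEHP livers at 24 h read 4397, 4639.6 and 3895 and lay below all 10 vehicle livers, at 5060 to 6703 (log2 change −0.39 ± 0.09, adjusted p = 0.00208). This call was lost when all 18 groups shared a fit (adjusted p = 0.496). At 48 h it was 4738 ± 615 beside 5527 ± 339 (−0.23 ± 0.09, adjusted p = 0.0482), a call lost in all but vehicle replicate 3 and treated replicate 3 of the fits without 1 array. With VPA at 48 h the log2 change was −0.23 ± 0.12 (adjusted p = 0.129). It was not called with clofibrate, where vehicle livers at 48 h ran from 821 to 5545, on the arrays with the wide spread of 3′ to 5′ ratios given above, whose part in this was not tested.

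In complex IV, none of 20 tested probe sets was called higher and 6 lower with VPA at 24 h, where 20.9% of all probe sets were called higher and 15.6% lower. At 48 h 1 was called higher and 4 lower, beside 21.3% and 18.4% of all, so the lower count was near the share over the array. The medians of the complex were −0.08 and 0.01. Cox4i1, a nuclear subunit that tunes the enzyme to ATP, read 21089.5, 21172, 20589.8 and 21953 in VPA livers at 48 h and 29522, 26414, 25169, 27652 and 25855 in vehicle livers, without overlap (log2 change −0.34 ± 0.09, adjusted p = 0.0026). At 48 h its brightest probe set gave −0.16 ± 0.10 and another −0.08 ± 0.11, and neither was called (adjusted p = 0.189 and 0.594). The brightest was called lower at 24 h, at −0.35 ± 0.09 (adjusted p = 0.00526). Both calls were lost after quantile normalization and when all 18 groups shared a fit.

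Cox4i2, the isoform known from lung, was lower with VPA at 24 h, at 1955 ± 214 from 2716 ± 206 (−0.48 ± 0.15, adjusted p = 0.014), a call lost without treated replicate 2. Cox6a2, the isoform of heart and skeletal muscle, was lower with VPA at 48 h: the livers read 916, 1057, 766 and 1002 against 1300, 1079, 1292, 1484 and 1610.4 (−0.53 ± 0.14, adjusted p = 0.00433). The same probe set was called lower with VPA at 24 h (−0.43 ± 0.14, adjusted p = 0.0183), with clofibrate at 48 h (−0.54 ± 0.17, adjusted p = 0.0257) and with DEHP at 24 h (−0.33 ± 0.12, adjusted p = 0.0377). These 3 calls were each lost in some fits without 1 array. Both Cox8b probe sets, for another muscle isoform, and the other 2 Cox6a2 probe sets stayed below the filter. Of 7 skeletal muscle probe sets, Acta1 and Myh2 were under 150 in each group mean, while group means ran from 577 to 1357 for Myh1, from 262 to 481 for Myl1, and from 83.9 to 381 over Myh4, Ckm and Tnnt3. Myh1, the only one tested, changed by −0.67 and −0.66 with VPA at 24 and 48 h, which was not called, and by −0.98 with DEHP at 48 h, which was. The list's sum ran from 857 to 1887 in VPA livers at 48 h and from 1645 to 2328 in their vehicle livers. The part of muscle RNA in the Cox6a2 values was not tested.

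Cox6c, a small accessory subunit, has 2 probe sets that disagreed. One fell at 48 h with all 3 compounds: with VPA the livers read 262, 325, 224 and 345 against 887, 574, 785, 489 and 772 (log2 change −1.27 ± 0.19, adjusted p = 1.03e-05), and with clofibrate and DEHP it changed by −0.95 ± 0.17 and −0.71 ± 0.19 (adjusted p = 0.000328 and 0.00641). The other read 1506 ± 202 beside 1508 ± 268 and was never called. The direction for this gene is therefore not settled by the array. Cox6a1, the liver-type isoform, was called higher with VPA at 48 h (0.43 ± 0.11, adjusted p = 0.00294), a call lost when all 18 groups shared a fit, and its other 2 probe sets were not called. Clofibrate at 48 h raised 1 of 2 Cox6b1 probe sets (0.69 ± 0.16, adjusted p = 0.00322) and 1 of 4 Cox8a probe sets (0.49 ± 0.13, adjusted p = 0.00898).

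In complex V, calls in both directions fell on single subunits with VPA, and both directions were also common over the array. Of all probe sets, 20.9% and 21.3% were called higher and 15.6% and 18.4% lower with VPA at 24 and 48 h. With DEHP these shares were 15.1% and 12.8% higher and 17.5% and 21.1% lower. Atp5f1d, the delta subunit of the rotor stalk, rose with DEHP and VPA. The 3 DEHP livers at 24 h read 5305, 4389 and 4950.3 against 2956 to 3465 in all 10 vehicle livers (log2 change 0.57 ± 0.08, adjusted p = 7.74e-06), and its second probe set gave 0.57 ± 0.09 (adjusted p = 3.29e-05). At 48 h these were 0.41 ± 0.08 and 0.53 ± 0.09 (adjusted p = 0.000262 and 4.43e-05). VPA at 24 h gave 0.47 ± 0.13 and 0.60 ± 0.13 (adjusted p = 0.00548 and 0.000867). With clofibrate the changes at 24 and 48 h were 0.50 ± 0.20 and 0.44 ± 0.20 and were not called.

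Atp5f1e, the epsilon subunit of the same stalk, went the other way with VPA. At 48 h the livers read 7419.6, 8556, 10228 and 8667 and the vehicle livers 12084, 13983, 11177, 12319.9 and 10431 (log2 change −0.46 ± 0.12, adjusted p = 0.00461), a call lost when all 18 groups shared a fit. Its second probe set changed by −0.31 ± 0.10 (adjusted p = 0.0201), lost without treated replicate 1. Atp5f1b, the catalytic beta subunit, was called at 168 h after DEHP and at no other time. The DEHP livers read 23758, 23774, 28147, 26108 and 22564 against 19312, 18758, 19638, 17760.3 and 19268, without overlap (0.39 ± 0.07, adjusted p = 0.00158). Atp5f1a and Atp5f1c, which complete the catalytic head and its shaft, were called in none of the 12 comparisons. Atp5pd and Atp5pf, of the stator stalk, were called higher with VPA at 48 h (0.33 ± 0.10 and 0.43 ± 0.14), and both calls were lost after median centring.

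Among the probe sets that match by name only, Ndufaf3, a complex I assembly factor, rose with VPA at 48 h from 1216 ± 133 to 1817 ± 249.7 (log2 change 0.58 ± 0.11, adjusted p = 0.000222), and its second tested probe set gave 0.67 ± 0.19 (adjusted p = 0.00728). Cox7a2l, which joins complexes III and IV, rose with VPA at 24 h, at 3130.4, 3927 and 3428 against 2160 to 2750 in vehicle livers (0.58 ± 0.11, adjusted p = 0.000365). Ndufa4l2, a paralogue of Ndufa4, fell with DEHP at 48 h from 1303 ± 147 to 877 ± 169 (−0.58 ± 0.12, adjusted p = 0.000724), with treated replicate 5 among the vehicle values. Its probe sets may detect several related transcripts.

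Core subunits of complex IV that are encoded in mitochondrial DNA were lower with VPA. The array holds 4 probe sets for COX1, COX2 and COX3. All 4 were called lower with VPA at 24 h (median log2 change −0.56) and at 48 h (−0.46), where 15.6% and 18.4% of all probe sets were called lower. The medians at 4 and 168 h were −0.26 and −0.31, and none was called at these times. For COX3 the 4 VPA livers at 48 h read 32652, 29576, 30439.6 and 37170.1 and the vehicle livers 48577, 42965, 38550.2, 42513 and 48919, with all treated livers lower. Its log2 change was −0.57 ± 0.12 at 24 h and −0.45 ± 0.12 at 48 h (adjusted p = 0.000621 and 0.00441). One COX1 probe set changed by −0.63 ± 0.12 and −0.54 ± 0.12 (adjusted p = 0.000263 and 0.0011). After quantile normalization none of the 4 was called at 24 h and 1 at 48 h. With DEHP none was called at any time, and with clofibrate only COX2 at 48 h, at −0.76 ± 0.23 (adjusted p = 0.0192).

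**Figure D5:**
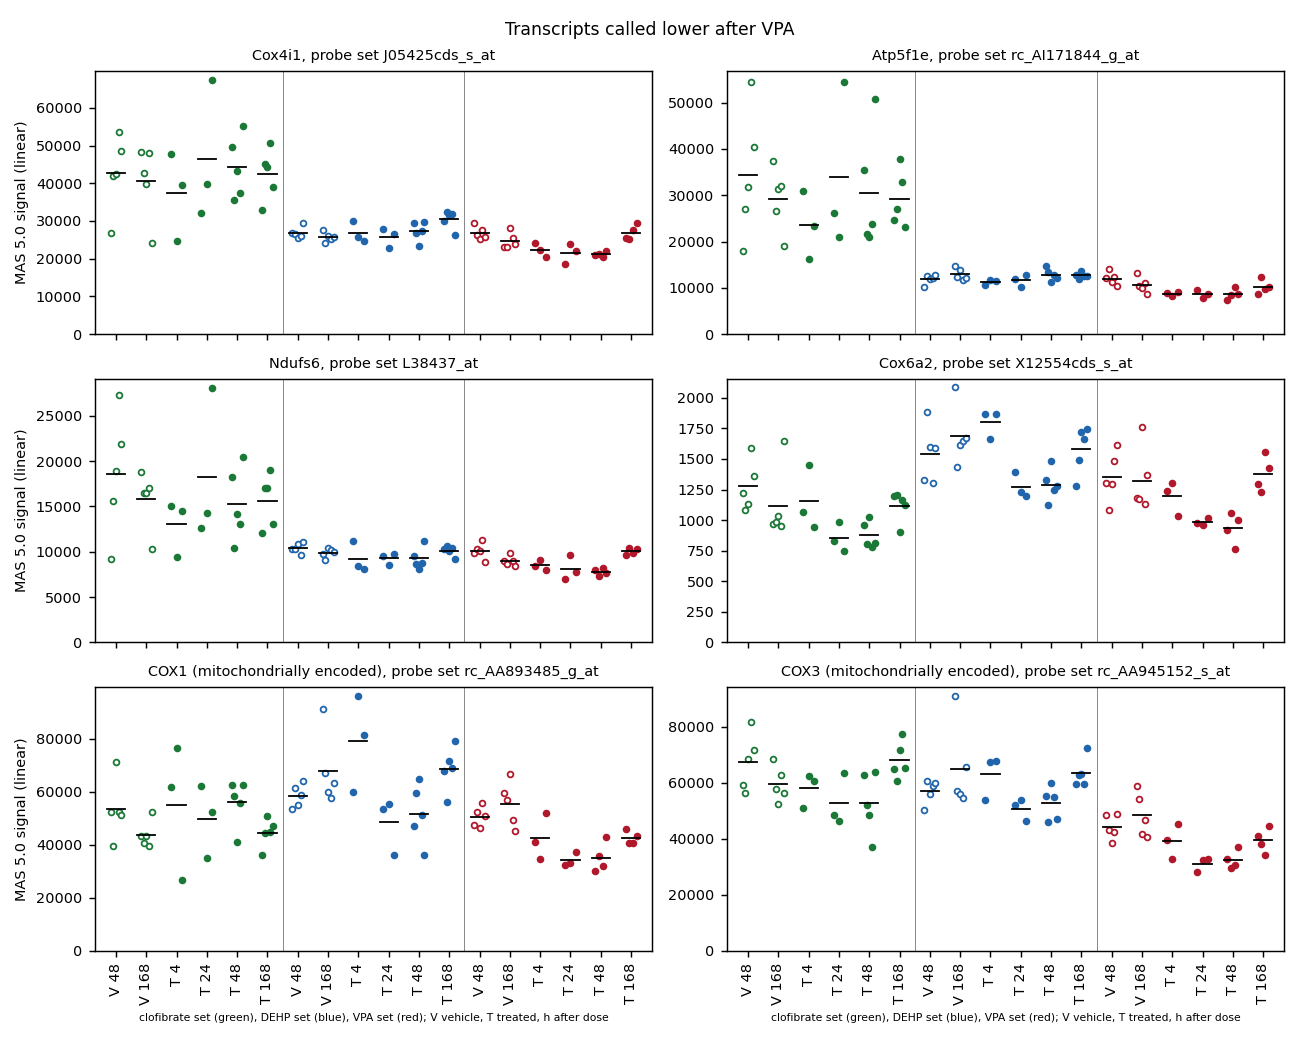
MAS 5.0 signal (linear axis) on each individual array for 4 nuclear subunits and 2 mitochondrially encoded subunits called lower with VPA, by compound set, vehicle (V, open) or treated (T, filled) and hours after the dose, with group means as bars. VPA livers at 24 and 48 h (red) lie lower on average than their vehicle livers. At 168 h none of the plotted differences was called, and the means of COX1 and COX3 are lower than in vehicle livers. The calls for Cox4i1 at both times, Ndufs6 at 24 h, and COX1 and COX3 at 24 h were lost after quantile normalization.

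Other genes that serve respiration were counted from lists. On the list of mitochondrial chaperones and factors of mitochondrial gene expression, 6 genes were measured by 11 probe sets. Of 9 tested probe sets with VPA, 8 were called higher and none lower at both 24 and 48 h, with DEHP 5 of 8 at both times, and with clofibrate 3 and 4 of 9. Of all probe sets, 20.9% and 21.3% were called higher with VPA at 24 and 48 h, 15.1% and 12.8% with DEHP, and 5.75% and 7.27% with clofibrate, which is also the background for the lists that follow. The count for VPA at 48 h was 5 when all 18 groups shared a fit. Hspd1 and Hspe1, the partner chaperones of the matrix, and Tufm, the mitochondrial translation elongation factor, were among these. With VPA at 48 h, Tufm rose by 0.70 ± 0.10 (adjusted p = 3.31e-06), Hspe1 by 0.71 ± 0.11 (2.47e-05) and Esrra, a nuclear receptor that drives respiratory genes, by 0.61 ± 0.16 (0.00432). In the citric acid cycle, 6 of 8 probe sets were called higher with VPA at 48 h, 4 of 7 with DEHP and 2 of 7 with clofibrate. Suclg1, of succinyl-CoA ligase, was the strongest, at 1.66 ± 0.23, 1.20 ± 0.11 and 1.20 ± 0.10 with clofibrate, DEHP and VPA at 48 h (adjusted p = 1.12e-05, 3.3e-09 and 2.86e-09). Among carriers and partners of the chain, 3 of 16 were called higher with clofibrate at 48 h and 6 with DEHP and with VPA, and 2 were called lower with DEHP. Etfa, which feeds electrons from fatty acid oxidation to the chain, was higher with all 3 compounds at 48 h, and Slc25a3, the phosphate carrier, with clofibrate and DEHP. Nnt, the transhydrogenase, was lower with DEHP at 48 h (−0.47 ± 0.10, adjusted p = 0.00107). All 8 probe sets of fatty acid oxidation genes were called higher at 48 h with each compound, with median log2 changes of 4.82, 3.67 and 3.17 for clofibrate, DEHP and VPA. This list was chosen with earlier results of these data known, so its outcome is no independent check of the labels.

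Members called at 4 h were nearly all lower, though most members were not called. With VPA 9 of 86 were lower and 1 higher, where 6.79% of all probe sets were called lower and 14.4% higher. With DEHP 2 of 86 were lower, beside 1.34% of all. With VPA the 9 lower calls were Ndufa3, Ndufb5 and 2 probe sets of Ndufs8 in complex I, Cox4i1, Cox4i2 and Cox8a in complex IV, and Atp5f1e and Atp5po in complex V, and Atp5if1 was the single higher call. Ndufb5, a membrane arm subunit, gave −0.72 ± 0.18 (adjusted p = 0.00558), with 595 ± 200 in treated and 957 ± 143 in vehicle livers. Its brighter probe set read 3457 beside 3571 and was not called (−0.035, adjusted p = 0.888), so the direction for this gene is not settled. Cox4i1, Cox8a, Atp5f1e and Atp5po were likewise each called on a single probe set, and their other probe sets were not called. Without treated replicate 2 the count of calls at 4 h was 2 instead of 10. With DEHP, Cyc1 and Cox7b, a small complex IV subunit, were called lower, and both calls were lost without treated replicate 2 or 3.

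The responses of the compounds were then compared with each other at 24 and 48 h in a fit of all 18 groups. The doses differ, so a difference is one between these treatments and not between equal doses. Between VPA and clofibrate, 5 of 88 tested members differed at 24 h (8.86% of all probe sets) and 7 at 48 h (11.3%). Between VPA and DEHP 3 differed at 24 h (4.62%) and 4 at 48 h (7.97%). Between clofibrate and DEHP none did at either time (2.2% and 2.07%), although 6 and 10 members had an unadjusted limma p under 0.05. Atp5if1 separated VPA from both others. On its brightest probe set the VPA response exceeded that to DEHP by 1.52 ± 0.29 and that to clofibrate by 2.18 ± 0.29 on the log2 scale at 48 h (adjusted p = 0.000221 and 1.44e-07). Ndufa3 separated clofibrate from VPA, by −1.19 ± 0.30 for VPA over clofibrate at 48 h (adjusted p = 0.00475). Its difference between clofibrate and DEHP was 0.76 ± 0.29 with a 95% interval of 0.18 to 1.34 and was not called (adjusted p = 0.187). For Uqcrfs1 no difference was called on any of its 3 probe sets. Clofibrate over DEHP at 48 h had 95% intervals of −0.06 to 0.63 on the brightest, 0.05 to 1.32 on the second and −0.32 to 0.67 on the third. For VPA over DEHP they were −0.12 to 0.60, −0.31 to 1.00 and 0.00 to 1.02. The second probe set for clofibrate and the third for VPA reached an unadjusted limma p under 0.05, and neither was called (adjusted p = 0.308 and 0.246).

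The pooled arrays were in none of the tests. For Atp5if1 with VPA at 48 h the pooled log2 difference was 1.95 on the brightest probe set and 2.03 on the second, for Ndufa3 with clofibrate at 48 h 1.30, and for Uqcrfs1 with VPA at 48 h 0.45 on the brightest. With 1 array a group these have no error, and they are pools of the same groups, per the labels, so they are no independent support. Within the 2 scanning days that held both groups, the Atp5if1 difference with VPA at 48 h was 2.23 and 2.41 on the log2 scale, the latter from 1 array a group, and that of Ndufa3 with clofibrate at 48 h was 1.74 and 0.87. Members were named largely for their calls on these same arrays, so the sign of such values is no support for them.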

How the data were processed

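Total RNA (10 µg) of single livers was hybridised to Affymetrix rat arrays. The deposited values are MAS 5.0 signals, hybridisation intensities on a linear scale, which the authors scaled to a target of 1500, per the labels. Signals under 150 were set to 150 and taken to log2. Probe sets with a mean of at least 500 in at least 1 group of a fit were tested, without 59 control probe sets. Each compound's arrays were fitted with limma 3.58.1 in R 4.3.3 (lmFit and eBayes with an intensity trend), and p-values were adjusted over all probe sets tested by the Benjamini-Hochberg method. Treatment at 4 and 24 h was set against the mean of both vehicle groups. Differences between compounds came from 1 fit of 18 groups. The tests were tried on simulated data. Of 1.5-fold changes put in at 48 h, 28.8% were recovered with clofibrate, 54.7% with DEHP and 53.5% with VPA. For 2-fold changes these were 63.1%, 90.2% and 81.7%. Only a small random part of the probe sets was changed there, with independent normal noise. In the data 20%, 33.8% and 39.7% of all were called at 48 h with clofibrate, DEHP and VPA. The adjustment therefore differs, and these rates do not give the recovery in the tests above. A member that was not called may still have changed. The number of arrays limits the precision. No 2 arrays held the same values.

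Members and lists were chosen with earlier results of these data known. Named members are Atp5if1, the probe set with the highest mean in each complex, the muscle-type isoforms, and at most 25 called members with a mean of at least 1000, by smallest adjusted p. Others are named after their values were seen. The mitochondrial COX symbols joined their list once the array's names were known. Alternatives to the floor, filter, scaling, vehicle group and fit were tried. Replicate numbers did not pair treated and vehicle samples: of 28 pairs, 6 correlated over 0.1.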

Additional observations from a re-analysis of the deposited data

Results flagged for a closer look

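No explanation was tested for the results given here. In 50 groups of 4 or 5 arrays examined, 2 had 1 array far from the others, where chance gives about 1 in 20. Ndufa4l2 read 1174.5 in DEHP replicate 5 at 48 h, and the other 4 read 758.1 to 851.3. Sdha read 6703.2 in DEHP vehicle replicate 4 at 168 h, and the other 4 read 5313.7 to 5615.9.

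The other 19 are responses that differed between 2 compounds in the test of the difference itself, given on the log2 scale. VPA minus DEHP at 24 h was 1.639 and 1.158 on 2 Atp5if1 probe sets and −0.960 for Cox6c, and the last was lost without VPA replicate 1 or 2 or DEHP replicate 1. VPA minus DEHP at 48 h was 1.523 and 1.303 for Atp5if1, 0.599 for Ndufs4 and 0.772 for Ndufb10, and the last 2 were lost after median centring or quantile normalization. VPA minus clofibrate at 24 h was 2.012 and 1.353 for Atp5if1, 1.338 for Ndufb1, 0.587 for Ndufc2 and −0.990 for Cox6c. Of these, Ndufb1 was lost without VPA replicate 2 or 3 or clofibrate replicate 3, and Ndufc2 without any of VPA replicates 1 to 3 or clofibrate replicate 3. Both Cox6c differences at 24 h come from the same probe set. The other Cox6c probe set gave 0.391 for VPA minus DEHP and 0.246 for VPA minus clofibrate, neither called, so the direction for this gene is not settled. VPA minus clofibrate at 48 h was 2.180 and 1.588 for Atp5if1, −1.187 for Ndufa3, 0.565 for Ndufc2, −0.433 for Cox8a, 0.835 for Cox7a2l and 0.706 for Ndufaf3. The calls for Ndufc2, Cox8a and Cox7a2l were each lost in 5 or more of the fits without 1 array.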

How the results depend on the processing

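No called member reversed its direction under any alternative. Of the recomputed member calls, 2999 stayed past the threshold and 455 did not. Counts of members called varied more, and the cause was not tested. The shares of all probe sets called under these alternatives, and without 1 array, are not given here. The counts thus do not tell whether the members moved or the whole array did. With all 18 groups in 1 fit they were 2 and 10 for clofibrate at 4 and 24 h, 23 at 48 h, 0, 5 and 10 for DEHP at 4, 24 and 48 h, and 5 for VPA at 4 h. With the 3′ to 5′ ratio as a covariate they were 13 and 23 for clofibrate at 24 and 48 h, 1 for DEHP at 4 h, 5 and 8 for VPA against DEHP at 24 and 48 h, 2 for clofibrate against DEHP at 48 h and 12 for VPA against clofibrate at 48 h. Array weights gave 6, 12 and 25 for clofibrate at 4, 24 and 48 h and 5 for DEHP at 4 h. Without a filter on low signal the counts were 1 for clofibrate at 4 h and 1, 12 and 1 for DEHP at 4, 24 and 168 h. With only the compared groups they were 6 for clofibrate at 48 h and 0 for DEHP at 4 h. Against the 48 h vehicle alone they were 2 for clofibrate at 24 h and 0 and 11 for DEHP at 4 and 24 h, and against the 168 h vehicle alone 12 for DEHP at 24 h. Quantile normalization gave 4 for DEHP at 4 h and 2 for VPA against DEHP at 48 h. Median centring, which moved the median of all probe sets with VPA at 4 h from 0.085 to −0.053, gave 24 there, 1 for DEHP at 4 h and 2 for VPA against DEHP at 48 h. It also turned 4 of 5 higher into 3 of 5 and 5 of 7 into 3 of 7 for VPA against clofibrate at 24 and 48 h.

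Replicate numbers did not pair the samples (correlations from −0.455 to 0.549, and 7 of 28 samples matched their own number best). With the replicate block the counts were 3 and 12 for clofibrate at 24 and 48 h, 1, 14, 15 and 2 for DEHP at 4, 24, 48 and 168 h, and 14, 29 and 29 for VPA at 4, 24 and 48 h.

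Leaving out 1 array gave 2 to 4 and 9 to 16 for clofibrate at 24 and 48 h (2 at 24 h without treated replicate 1 or 3), and 0 for clofibrate at 4 and 168 h and VPA at 168 h. For DEHP it gave 0 to 7, 11 to 19, 11 to 18 and 1 to 3 at 4, 24, 48 and 168 h. At 4 h the count was 7 without treated replicate 1, 0 without 2 or 3, 5 and 4 without vehicle 48 h replicates 1 and 4, and 1 without replicates 2 or 5 of either vehicle group. It was 11 and 12 at 24 h without treated replicates 1 and 2, 11 at 48 h without treated replicate 1, and 1 at 168 h without treated replicates 1 to 4 or vehicle replicate 4 or 5. For VPA it gave 2 to 16 at 4 h (2 without treated replicate 2, 16 without vehicle 168 h replicate 5), 19 to 30 at 24 h and 25 to 32 at 48 h. Between compounds it gave 0 to 1 for clofibrate against DEHP at both times, 2 to 3 and 3 to 4 for VPA against DEHP, and 3 to 7 and 5 to 10 for VPA against clofibrate at 24 and 48 h. For the latter the count was 3 at 24 h without VPA replicate 2 or 3.

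Cross-hybridising probe sets, the lack of vehicle livers at 4 and 24 h and 3 animals a group at these times limit the values. Of 102 members, 14 were too dim to test.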
